A study of Oryza sativa Indica Group with 36 samples.

Results

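The genes described here are the 150 annotated genes of rice (Oryza sativa Indica Group) that stood highest above both the control and the cold level in every recovery treatment but AT3H1. They were chosen from the deposited FPKM values, which are fragments per kilobase of gene, scaled to the counted total of each library. For each of the 40745 annotated genes, the 3 libraries of each of the 12 treatments were averaged. The score was log2 of the lowest of 5 recovery means plus 1 over the highest of 6 control and cold means plus 1. The recovery treatments in the score were AT1H1, BT1H1, BT1H3, BT3H1 and BT3H3, and the control and cold treatments were ACK, BCK, AT1, BT1, AT3 and BT3. Genes whose BT3H3 mean was more than 2 times the highest other recovery mean were left out, and 3051 genes then had a score above 0, of which the 150 highest were taken. The difference between recovery and the other treatments therefore chose these genes and is given only as a description, without a test.

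The study compared 2 near-isogenic indica cultivars, 9311 (letter A) and DC907 (letter B), of which the authors call DC907 cold tolerant and 9311 not. Seedlings grown in nutrient solution to the four-leaf stage stayed uncooled (CK), spent 1 or 3 days at 8 ℃ (T1, T3), or were then returned to room temperature for 1 or 3 days (H1, H3). All 36 libraries came from stems and leaves, 15 labelled 9311 and 21 labelled DC907, and the seeds of all plants had been soaked in the fungicide carbendazim before germination. The sources call the 3 libraries of a treatment biological replicates without saying whether each is a single plant or a pool, so p-values measure only the spread between these libraries. The sources used here do not give the day on which the sequenced controls were collected, so that treatment and plant age cannot be told apart. The tissue label was not checked against marker genes, because the gene identifiers carry no names.

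Cold slows growth and membrane and enzyme function in rice, a plant of warm climates, and rewarming lets photosynthesis, sugar use and growth resume. Transcripts in leaves commonly turn over within hours to days, so a gene can be lowered in the cold and pass its starting level once the plant is warm again. Genes of that kind are said to overshoot. In whole aerial parts, more cells of a type and more RNA per cell cannot be told apart.

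Library totals ran from 10176660 counts in BT1 replicate 3 to 18789555, and the next lowest total was 14412904. The 6 libraries labelled AT3 and AT3H1 carried the DC907 level at 82.1% to 96.2% of 78 genes that separate the cultivars in the other libraries, while the other libraries labelled 9311, read on markers chosen without them, carried it at no more than 8.75%. The former are therefore written as libraries labelled AT3 and AT3H1. None of the 150 members is among those 78 genes. Without the libraries labelled AT3 in the rule, 134 of the 150 members were chosen again.

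Scores ran from 4.41 for BGIOSGA009523 and 2.65 for BGIOSGA003739 down to 0.97, with a median of 1.22. A score above 2 was found in 8 members and above 1.5 in 30. At the limit, BGIOSGA031384 (0.971), BGIOSGA018898 (0.970) and BGIOSGA000810 (0.970) were the last taken. BGIOSGA017244 (0.968), BGIOSGA015572 (0.968) and BGIOSGA003781 (0.966) were the first left out, so the end of the list is a cut through nearly equal values.

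The median of the members' group means was 9.36 FPKM in ACK and 10.03 in BCK. It was 3.47 in AT1, 4.91 in BT1, 5.08 in BT3 and 4.12 in the libraries labelled AT3. In recovery it was 32.0 in AT1H1, 37.9 in BT1H1, 33.6 in BT1H3, 43.8 in BT3H1 and 45.8 in BT3H3. The members thus had 3 levels, lowest in the cold, intermediate uncooled, and highest after rewarming. The highest mean outside recovery was that of a control in 110 members (BCK in 64 and ACK in 46) and that of a cold treatment in the other 40.

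The median of recovery means was 2.25 to 333 times the mean of the controls, with a median over members of 4.06. All 15 recovery libraries lay above all 18 control and cold libraries in 107 members, while 1.53% of the 33652 annotated genes with any count did so. This count and the like counts in the rest of this paragraph follow from the rule, and nothing is read from them. Against the control of the cultivar alone, all 3 recovery libraries lay above all 3 controls in 134 members in AT1H1 (14.2% of all genes), 140 in BT1H1 (21.3%), 144 in BT1H3 (20.1%), 143 in BT3H1 (23.8%) and 137 in BT3H3 (20.6%). In the other 43 members at least 1 recovery library overlapped the control or cold range. The highest control value came from replicate 2 of ACK or of BCK in 119 members, and the like share of all genes was not taken. Without these 2 libraries, 125 members had their 15 recovery libraries above the 16 libraries left, beside 2.63% of all annotated genes with any count.

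**Figure D1:**
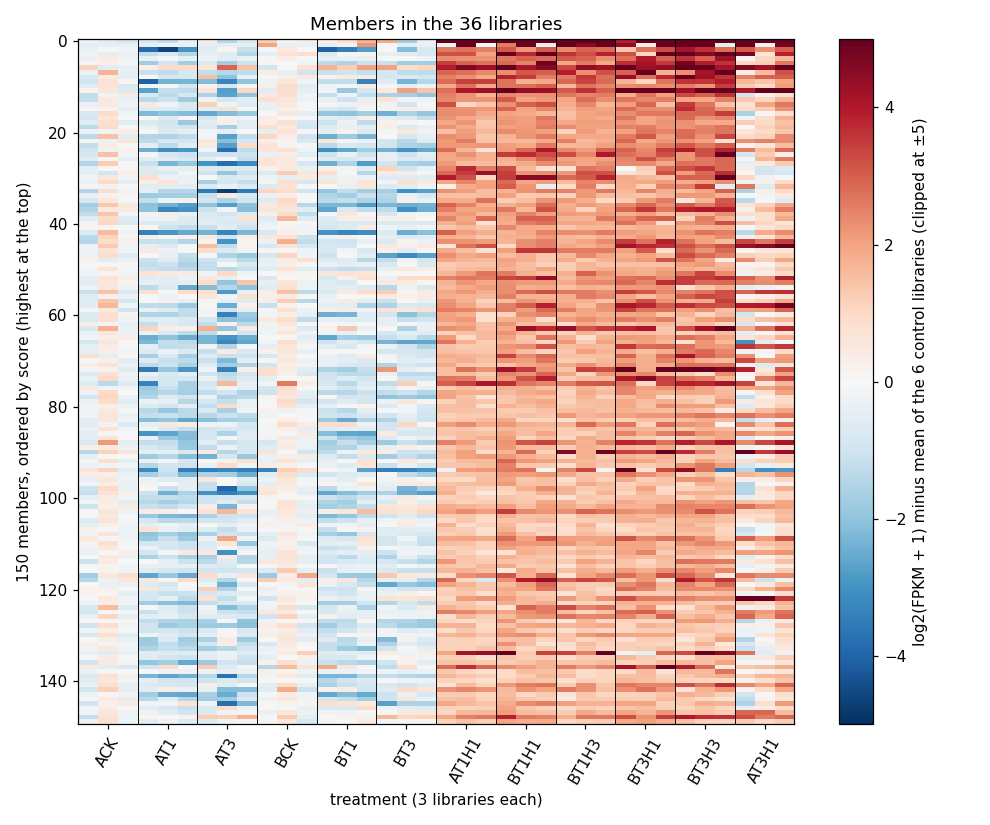
Each of the 150 members (rows, highest score at the top) in each of the 36 libraries (columns, 3 for each treatment), as log2(FPKM + 1) minus the mean of the 6 control libraries. Recovery columns are red in nearly all rows, cold columns are mostly blue, and the columns of AT3H1 are mixed, with replicate 3 the reddest.

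Per library, the median of log2(FPKM + 1) over the members was 2.90 to 3.79 in the 6 control libraries and 1.73 to 2.71 in the 12 cold libraries. It was 4.85 to 5.49 in the 15 recovery libraries, which did not overlap the others. The 2 highest control libraries were replicate 2 of ACK at 3.79 and replicate 2 of BCK, also at 3.79, and the other 4 lay between 2.90 and 3.09. Members held 0.287% to 0.554% of all counts in the controls, 0.187% to 0.313% in the cold and 1.40% to 2.68% in recovery.

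**Figure D2:**
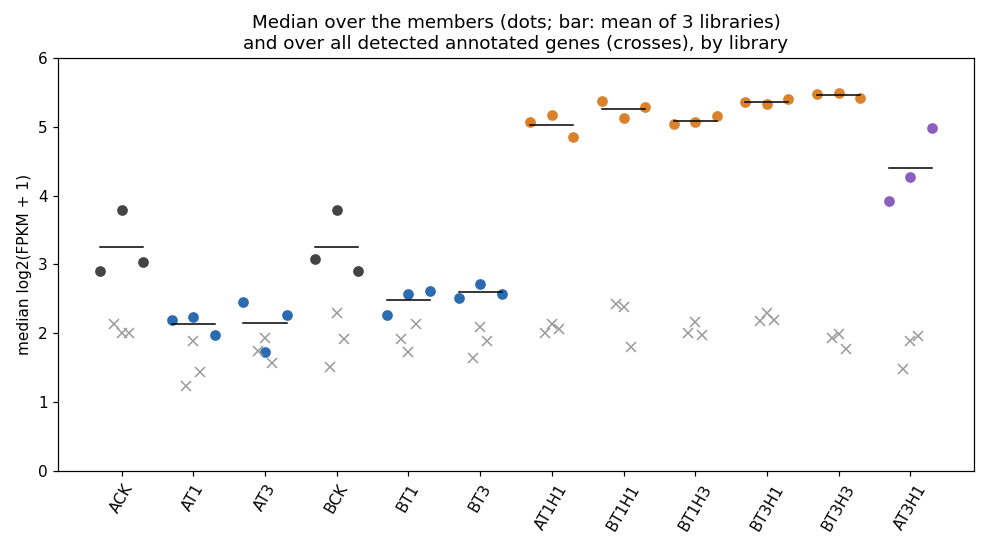
Median over the members of log2(FPKM + 1) in each library (dots, with a bar for the mean of 3 libraries) and the same over all annotated genes with any count (crosses). The dots move from about 3 in the controls to 1.73 to 2.71 in the cold and 4.85 to 5.49 in recovery, while the crosses stay between 1.23 and 2.43 in all 36 libraries.

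BGIOSGA009523 had the highest score. Its FPKM was 3.54 to 18.5 in the 6 control libraries (median 7.15), 1.64 to 29.3 in the 12 cold libraries (median 5.70) and 124 to 2018 in the 15 recovery libraries (median 754). Its lowest recovery library, BT3H1 replicate 1, was still above every control and cold library. The 3 libraries of BT3H3 had 2018, 1502 and 754 FPKM, and those of BT3H1 had 124, 454 and 528. Its cold libraries overlapped its controls: AT1 had 3.68, 2.55 and 5.61 FPKM beside 6.54, 4.82 and 3.54 in ACK, and BT1 had 8.99, 14.1 and 26.3 beside 18.5, 7.76 and 9.13 in BCK.

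BGIOSGA009524 carries the next identifier and had the third score. It was abundant before the cold, at 162 to 288 FPKM in the controls (median 198), and reached 524 to 3589 in recovery (median 1401). AT1 held only 13.2, 7.31 and 25.6 FPKM and BT1 11.4, 17.6 and 28.9, far under all 6 controls. After 3 days of cold the values were spread, with 207, 46.3 and 121 in BT3, so that the drop seen on the first day was smaller there.

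BGIOSGA003739 had the second score and the least even values. Its FPKM was at most 4.50 in the controls and 5.43 in the cold. The 3 libraries of BT3H1 had 29.3, 0.653 and 4340 FPKM, those of BT1H3 707, 31.6 and 2317, and those of BT3H3 734, 66.5 and 0. A high mean therefore rested on 1 or 2 libraries in each of these treatments, and recovery libraries overlapped the control libraries. The median over the recovery treatments of its coefficient of variation was 152%, the highest of all members, whose median coefficient of variation over the recovery treatments was 23.2%.

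BGIOSGA026341 had 0.898 to 3.79 FPKM in the controls, at most 2.01 in the cold and 4.47 to 181 in recovery (median 35.3). BGIOSGA034156 was nearly silent outside recovery, at 0.194 to 1.00 FPKM in the controls and at most 0.520 in the cold, and had 6.10 to 26.9 in recovery. BGIOSGA019490 had 1.91 to 2.96 FPKM in the controls, 0 to 1.04 in the cold and 11.5 to 95.4 in recovery. These 3 genes share a clean gap between all recovery and all other libraries, and their cold libraries reach at most 2.01 FPKM. BGIOSGA035789 had the same order of levels, with 0.423 to 7.77 FPKM in the controls, at most 0.479 in the cold and 7.91 to 167 in recovery.

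BGIOSGA001929 differed in its cold values. It had 4.71 to 23.4 FPKM in the controls (median 8.65), 12.2 to 80.4 in the cold (median 23.1) and 107 to 646 in recovery (median 228). It was thus raised in several cold libraries and raised further in all recovery libraries. It is 1 of the 3 members whose mean exceeded the control of the cultivar in AT1, BT1 and BT3 alike. The other 2, named after their values were seen, are BGIOSGA019756, with means of 7.10 FPKM in ACK and 7.53 in AT1, and BGIOSGA024478, with 12.5 in BCK and 24.7 in BT1.

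**Figure D3:**
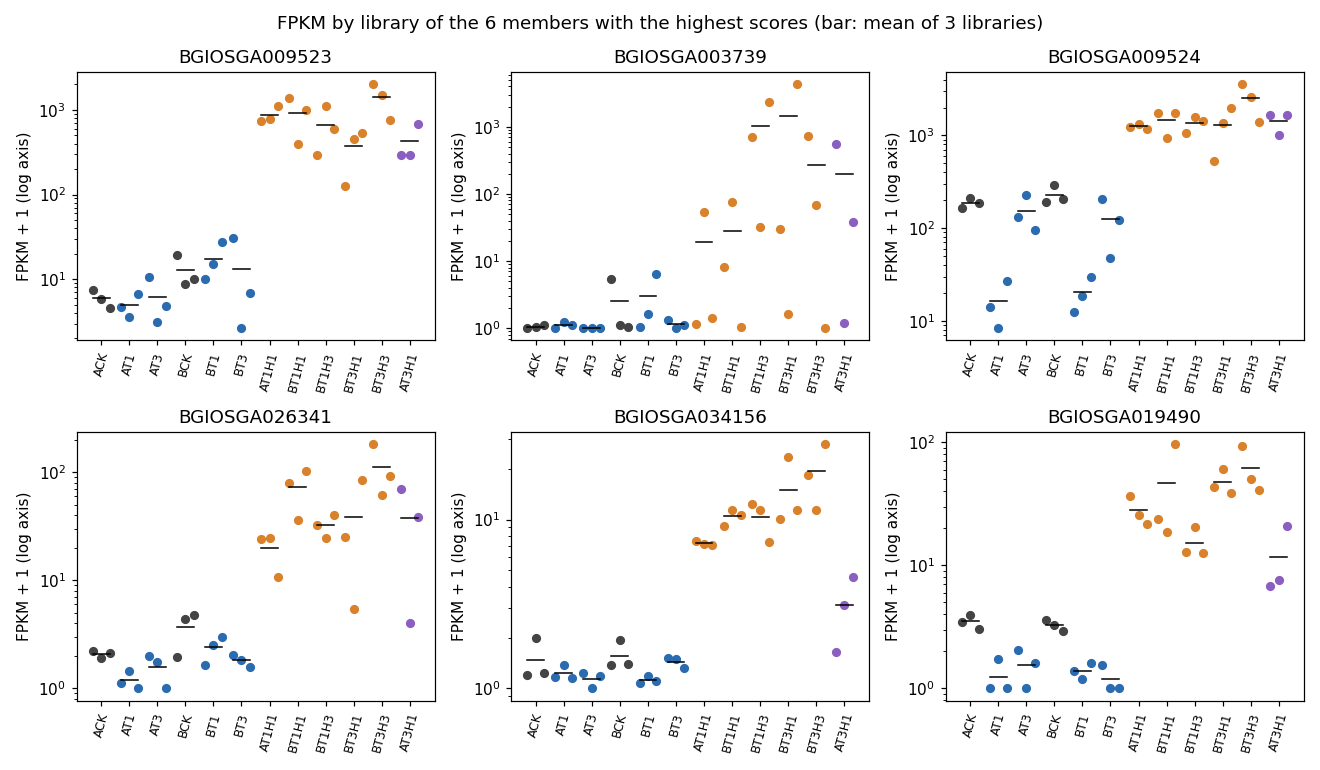
FPKM + 1 on a log axis in each library (points) and the mean of 3 libraries (bar) for the 6 members with the highest scores. In 5 of them all 15 recovery libraries (orange) lie above the control (dark grey) and cold (blue) libraries. BGIOSGA003739 spans from 0 to 4340 FPKM within recovery, and the libraries labelled AT3H1 are in purple.

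Among the remaining 12 of the 20 highest scores, BGIOSGA026332 and BGIOSGA004888 were the most abundant. BGIOSGA026332 had 59.9 to 202 FPKM in the controls, 6.29 to 78.7 in the cold and 251 to 1861 in recovery. BGIOSGA004888 had 40.5 to 196 FPKM in the controls, 31.9 to 125 in the cold and 282 to 670 in recovery. In both, the highest library outside recovery was replicate 2 of ACK.

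BGIOSGA015061 reached 98.3 to 1864 FPKM in recovery from 8.04 to 25.8 in the controls. It was most abundant in BT3H1, with 1864, 950 and 1232 FPKM, and lower in BT1H3, with 120, 184 and 115. BGIOSGA003217, at 19.7 to 32.7 FPKM in the controls, and BGIOSGA005143, at 4.88 to 13.4, reached 87.6 to 352 and 37.6 to 296 in recovery. Both had cold libraries above some of their controls.

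BGIOSGA034158, BGIOSGA014344 and BGIOSGA016849 fell in the same order, lowest in the cold and highest in recovery. BGIOSGA034158 had 0.0916 to 4.996 FPKM in the cold, 1.95 to 11.1 in the controls and 21.7 to 84.0 in recovery. BGIOSGA014344 had 0.806 to 2.68 FPKM in the cold, which is under all 6 of its controls at 5.38 to 19.4, and 28.8 to 119 in recovery. BGIOSGA016849 was even in recovery, at 20.2 to 43.9 FPKM, beside 3.75 to 13.9 in the controls.

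Of the last 4 of the 20, BGIOSGA011511 had 31.9 to 70.2 FPKM in recovery and at most 13.6 elsewhere. BGIOSGA019515 had 5.09 to 21.1 in recovery and at most 2.83 elsewhere, and BGIOSGA031764 5.46 to 14.6 and at most 2.22. BGIOSGA007821, at 3.07 to 21.4 FPKM in recovery, overlapped 1 library labelled AT3 at 3.53.

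BGIOSGA016537, named after its values were seen, is the only member with a gene product known here, an aldose 1-epimerase. That name is the annotation shown by the study. Such enzymes interconvert the ring forms of sugars such as glucose and galactose, a step that feeds free sugars into metabolism. Its FPKM was 7.16 to 26.4 in the controls (median 15.2), 0.173 to 13.7 in the cold (median 1.73) and 24.7 to 272 in recovery (median 118). BT3H3 had 255, 150 and 237 FPKM, above all 6 control libraries, and AT1H1 had 112, 51.4 and 24.7, of which the last lay under the highest control. The gene with the identifier before it, BGIOSGA016536, is also a member, at 10.8 to 22.3 FPKM in the 6 controls and 35.0 to 107 in the 15 recovery libraries.

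Neighbouring numbers were found in 9 pairs of members. In 5 pairs the identifiers were consecutive, BGIOSGA009523 with BGIOSGA009524, BGIOSGA016536 with BGIOSGA016537, BGIOSGA027822 with BGIOSGA027823, BGIOSGA029333 with BGIOSGA029334, and BGIOSGA031417 with BGIOSGA031418. In 4 pairs they were 2 apart, among them BGIOSGA034156 with BGIOSGA034158. Some pairs differed in level and others did not, as seen in pairs named after their values were seen. BGIOSGA029333 had 2.57 to 10.1 FPKM in recovery and BGIOSGA029334 43.1 to 330, whereas BGIOSGA027822 had 19.02 to 27.7 and BGIOSGA027823 12.2 to 32.2. Whether paired genes lie side by side, or share sequence or reads, was not tested, since no indica annotation was used here. The median length of the members was 1135.5 bases, beside 1053 for the 24774 annotated genes with a group mean of at least 1 FPKM.

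None of the 41 genes that the study's text names and the tables hold was a member. The highest score among them was 1.78, for BGIOSGA015677, a ubiquitin transferase gene, followed by 1.06 for BGIOSGA005283, a MYB transcription factor gene. Both were above the limit on BT3H3 and were left out by it.

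Members differed in which recovery treatment had the highest or the lowest mean FPKM. The like counts over all genes were not made, so nothing about the members as a set is read from the counts that follow. The highest recovery mean was in BT3H3 in 66 members, in BT3H1 in 46, in BT1H1 in 31, in AT1H1 in 4 and in BT1H3 in 3. The lowest was in AT1H1 in 62 members, in BT1H3 in 43, in BT3H3 in 20, in BT3H1 in 17 and in BT1H1 in 8. The highest over the lowest recovery mean was under 2 in 83 members, with a median of 1.94. It was over 10 in 3, BGIOSGA003739 (80.9) and, named after their values were seen, BGIOSGA025253 (17.7) and BGIOSGA024204 (17.3).

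BGIOSGA024204 had 438 FPKM in BT3H1 replicate 3 and 37.5 and 33.5 in the other 2 libraries of that treatment. BGIOSGA025253 had 172 FPKM in BT1H1 replicate 1 and 2.82 and 15.1 in the other 2. As with BGIOSGA003739, 1 library carried the mean. At the other end, BGIOSGA010885, also named after its values were seen, was even, at 45.0 to 57.3 FPKM in 12 of the 15 recovery libraries and at 40.2 and 41.9 in BT1H1 replicates 1 and 2 and 22.6 in BT3H3 replicate 3.

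Apart from the limit on BT3H3, the rule did not compare treatments within the recovery side or within the control and cold side. It used the lowest recovery mean and the highest control or cold mean, which favours genes with even means within a side. Few calls between recovery treatments or between the controls can therefore in part follow from the rule, and no evenness of the members is read from them. The comparisons within a side were tested on counts, 3 libraries against 3, by the quasi-likelihood method of edgeR. The p-values were adjusted by Benjamini and Hochberg's procedure over all genes tested. A member was called at an adjusted p under 0.05. The filter on low counts passed 130 to 150 of the 150 members, so a count of calls is a count among those that passed.

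The first question was whether the members were lowered by the cold. In FPKM, the AT1 mean was under the ACK mean in 136 of the 150 members (55.1% of all annotated genes with any count), the BT1 mean under the BCK mean in 130 (47.0%) and the BT3 mean under the BCK mean in 124 (46.5%). All 3 held in 109 members, beside 31.4% of those genes. BT1 and BT3 share the BCK libraries. With TMM scaling the AT1 values rose by 0.31 on the log2 scale relative to ACK, and 126 members were then under the control in AT1, 130 in BT1 and 130 in BT3. Of all annotated genes with any count, 49.4%, 47.3% and 49.3% were under the control on that scale. The mean of the libraries labelled AT3 was under ACK in 125 members (44.3% of all) and under BCK in 131 (41.6%).

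In 9311 after 1 day of cold (AT1 vs ACK), 32 members fell and 2 rose among the 130 tested, beside 13.7% and 16.8% of all 22644 genes tested. The median log2 fold change was −0.80 over those members and −0.13 over all genes. Since a member can pass the filter through its control libraries alone, the median is a description only. The 20 members that did not pass had too few counts in these 6 libraries.

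BGIOSGA026527 had 20.8, 27.9 and 29.5 FPKM in ACK and 3.37, 4.97 and 3.28 in AT1, and fell by 2.30 on the log2 scale (SE 0.34, edgeR adjusted p 0.00770). BGIOSGA018255 went from 18.6, 26.2 and 18.2 to 4.40, 3.18 and 3.00 FPKM and fell by 2.09 (SE 0.31, edgeR adjusted p 0.00792). BGIOSGA037107 went from 67.5, 105 and 98.1 to 11.9, 15.1 and 21.8 FPKM and fell by 2.003 (SE 0.34, edgeR adjusted p 0.00998). In all 3 the cold and the control libraries did not overlap. BGIOSGA009524, with the values given above, fell by 3.10 (SE 0.52, edgeR adjusted p 0.0100) and BGIOSGA016537 by 2.73 (SE 0.56, edgeR adjusted p 0.0162).

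The 2 members that rose were BGIOSGA017567 and BGIOSGA005230. BGIOSGA017567 had 228, 282 and 227 FPKM in ACK and 410, 363 and 356 in AT1, a log2 fold change of 1.09 (SE 0.27, edgeR adjusted p 0.0278). BGIOSGA005230 had 46.9, 61.6 and 42.9 FPKM in ACK and 52.7, 102 and 90.1 in AT1, a log2 fold change of 1.15 (SE 0.31, edgeR adjusted p 0.0327). The libraries overlap in the second gene in FPKM. The count of 34 called members depended on single libraries, and so did the count over all genes, 6912 with all libraries. Called members were 15 without AT1 replicate 1 (4271 of all genes) or AT1 replicate 2 (3815). They were 4 without ACK replicate 3 (1174) and 4 without AT1 replicate 3 (1354). For the library named last, the authors reported a low rate of alignment to the genome and kept it. Whether that rate bears on the count of called members was not tested.

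In DC907 after 1 day of cold (BT1 vs BCK), 24 members fell and 1 rose among the 134 tested, beside 9.81% and 13.0% of all 23183 genes. BGIOSGA009524 fell by 3.41 (SE 0.41, edgeR adjusted p 0.00894), from 190, 288 and 206 to 11.4, 17.6 and 28.9 FPKM. BGIOSGA022230 fell by 4.13 (SE 0.51, edgeR adjusted p 0.00895), from 6.78, 15.2 and 10.5 to 0.728, 0.342 and 0.544 FPKM. BGIOSGA037107 fell by 2.58 (SE 0.36, edgeR adjusted p 0.0103), from 109, 94.5 and 132 to 21.3, 15.4 and 14.9 FPKM. None of these 3 overlapped. BGIOSGA001929 rose by 1.87 (SE 0.47, edgeR adjusted p 0.0325), from 4.71, 10.2 and 16.8 to 34.7, 24.3 and 44.7 FPKM. The count of 25 called members was 14 without BCK replicate 2, 3 without BT1 replicate 1 and 0 without BT1 replicate 2. Over all genes the count was 5292 with all libraries and 4073, 782 and 46 in those fits.

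The difference between the cultivars in this response was tested in 1 model of the 12 ACK, AT1, BCK and BT1 libraries as cultivar by treatment. edgeR's quasi-likelihood test called 0 of 139 members tested, with 4 at an unadjusted p under 0.05 (4.23% of all genes), and DESeq2 called 0. The test called 1 gene among all 24831, which is 0.00403%. A difference between the cultivars in the members' response to 1 day of cold was not detectable with 3 libraries per treatment.

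In DC907 after 3 days of cold (BT3 vs BCK), 26 members fell and 0 rose among the 134 tested, beside 16.7% and 17.2% of all 23290 genes. BGIOSGA016536 fell by 2.90 (SE 0.37, edgeR adjusted p 0.00618), from 14.6, 15.7 and 22.3 to 1.56, 3.11 and 2.51 FPKM. BGIOSGA004197 fell by 3.90 (SE 0.51, edgeR adjusted p 0.00645), from 4.45, 6.25 and 2.17 to 0.219, 0.393 and 0.242 FPKM. BGIOSGA034020 fell by 3.71 (SE 0.50, edgeR adjusted p 0.00677), from 7.51, 15.6 and 6.67 to 0.938, 0.563 and 0.631 FPKM. All BT3 libraries of these genes lay under all BCK libraries. BGIOSGA016537, the aldose 1-epimerase gene, fell by 3.61 (SE 0.51, edgeR adjusted p 0.00747), from 23.5, 26.4 and 12.6 to 2.19, 1.04 and 1.76 FPKM. The count was 12 without BT3 replicate 2 and 3 without BT3 replicate 3. Over all genes it was 7898 with all libraries and 4200 and 928 in those fits.

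The share of members called lower in the cold, 24.6%, 17.9% and 19.4% of those tested in the order above, stood beside 13.7%, 9.81% and 16.7% of all genes. The share called higher, 1.54%, 0.746% and 0%, stood beside 16.8%, 13.0% and 17.2%. The rule used all control and cold means in its ceiling and so bars genes whose cold mean came near their recovery means. These shares and the counts of members under the control are therefore descriptions, and nothing is read from their distance to the shares of all genes.

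**Figure D4:**
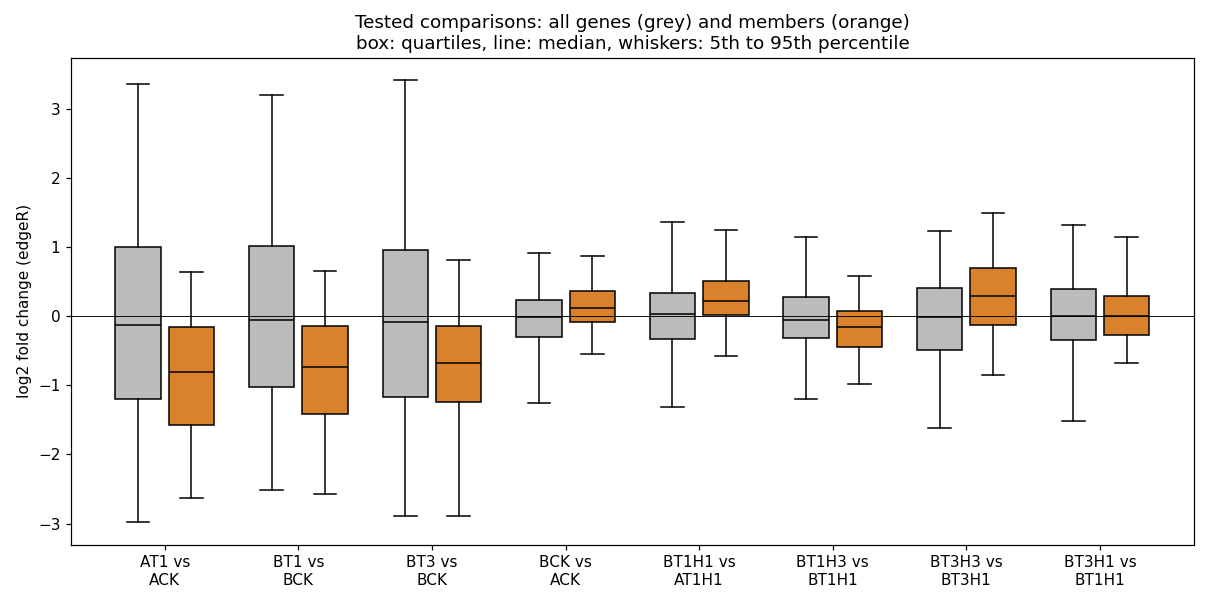
Log2 fold changes from edgeR in 8 comparisons, for all genes tested (grey) and for the members tested (orange), with quartile boxes, a median line and whiskers from the 5th to the 95th percentile. The members' boxes lie under 0 in the 3 cold comparisons, with medians of −0.80, −0.73 and −0.68, and near 0 in the others, with medians from −0.15 to 0.28.

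The next question was whether the cultivars differed. Between the controls (BCK vs ACK), edgeR's quasi-likelihood test called 0 of 137 members tested, beside 0.0176% of all genes called higher and 0.0263% lower. In that test 3 members had an unadjusted p under 0.05, beside 2.15% of all genes. DESeq2 called 0 members, beside 180 of 32039 genes. After 1 day of cold and 1 day of recovery (BT1H1 vs AT1H1), edgeR called 0 of 149 members. An unadjusted p under 0.05 in edgeR's test was found in 25 members, beside 17.1% of all genes. DESeq2 called 14 members, of which 12 were higher in DC907, beside 2014 of 31752 genes. The median log2 fold change was 0.22 over the members and 0.04 over all genes. Of all genes, edgeR called 0.243% higher and 0.478% lower.

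For the length of recovery after 1 day of cold (BT1H3 vs BT1H1), edgeR called 0 of 149 members tested. Of all genes, it called 0.0218% higher and 0% lower. An unadjusted p under 0.05 in edgeR's test was found in 22 members, beside 14.0% of all genes. DESeq2 called 9 members, beside 1483 of 31779 genes. A median log2 fold change of −0.15 over the members stood beside −0.05 over all genes. No member's level on the third recovery day was separated from that on the first by edgeR's test.

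After 3 days of cold more members were called between the recovery days, and so were more of all genes. Of all genes, 1904 of 22747 were called after 3 days of cold and 5 of 22971 after 1 day. The difference between the cold lengths was not tested. From BT3H1 to BT3H3, 12 members rose (8%) and 1 fell (0.667%) among the 150 tested, beside 4.61% and 3.76% of all 22747 genes. In both directions together, 8.67% of the members tested were called, beside 1904 of those genes. Nothing about the members as a set is read from these counts. The limit on BT3H3 in the rule bars the largest increases. BGIOSGA035744 rose by 1.52 (SE 0.18, edgeR adjusted p 0.0175), from 18.1, 13.8 and 18.8 to 47.1, 43.3 and 41.9 FPKM. BGIOSGA026770 rose by 1.05 (SE 0.15, edgeR adjusted p 0.0228), from 237, 219 and 224 to 442, 470 and 365 FPKM. BGIOSGA004210 rose by 1.49 (SE 0.24, edgeR adjusted p 0.0252), from 328, 234 and 331 to 657, 862 and 756 FPKM. In these 3 genes every BT3H3 library was above every BT3H1 library.

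BGIOSGA007682 was the only member that fell, from 29.5, 33.9 and 20.3 to 9.56, 10.4 and 13.5 FPKM (log2 fold change −1.15, SE 0.23, edgeR adjusted p 0.0365). Its BT3H3 libraries remained above its BCK libraries, which had 5.42, 4.92 and 3.40 FPKM. The count of 13 called members was 0 without BT3H1 replicate 1 or 2 or BT3H3 replicate 1 or 2, and 7 without BT3H1 replicate 3. Over all genes the count was 1904 with all libraries and 1, 15, 31, 1 and 814 in those fits. DESeq2 called 34 members, beside 4462 of 31444 genes.

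For the length of the cold before 1 day of recovery (BT3H1 vs BT1H1), 1 member fell and 0 rose among the 150 tested, beside 0.200% and 0.149% of all 23447 genes. This was BGIOSGA019503, at 17.9, 37.5 and 37.4 FPKM in BT1H1 and 5.28, 4.21 and 3.79 in BT3H1 (log2 fold change −2.82, SE 0.35, edgeR adjusted p 0.0472). Both levels were above its controls, which were at most 1.52 FPKM. The call was lost without any 1 of the libraries but BT1H1 replicate 1. In edgeR's test 14 members had an unadjusted p under 0.05, beside 16.7% of all genes. The median log2 fold change over the members was 0.00, beside 0.01 over all genes.

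The libraries labelled AT3H1 are the only recovery libraries that the rule did not use. Every treatment they are set beside was used by it, so the counts here and in the next paragraph are descriptions. Nothing is read from their distance to the shares of all genes. Their mean was above the highest control or cold mean in 122 of the 150 members, beside 16.5% of all annotated genes with any count, and above the mean of the libraries labelled AT3 in 148, beside 40.4%. All 3 AT3H1 libraries lay above all 3 ACK libraries in 63 members (13.7% of all) and above all 3 BCK libraries in 59 (15.0%). They lay above all 18 control and cold libraries in 51 members, beside 2.88% of those genes. The median over members of the AT3H1 mean was 23.3 FPKM, between the controls and the other recovery treatments. It was at or above the lowest of the other recovery means in 48 members, beside 68.2% of all genes.

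The 3 AT3H1 libraries differed from each other. Replicate 1 was above the highest control or cold mean in 85 members (14.2% of all genes), replicate 2 in 109 (16.7%) and replicate 3 in 140 (18.8%). Their medians of log2(FPKM + 1) over the members were 3.93, 4.27 and 4.99. Replicate 1 thus stood next to the highest controls and replicate 3 within the range of the other recovery libraries. Without replicate 3 the mean of the other 2 was above the highest control or cold mean in 99 members, and without replicate 1 that of replicates 2 and 3 in 135. Against BT3H1, the AT3H1 mean was lower in 133 members, beside 58.2% of all genes, with a median ratio of 0.486.

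**Figure D5:**
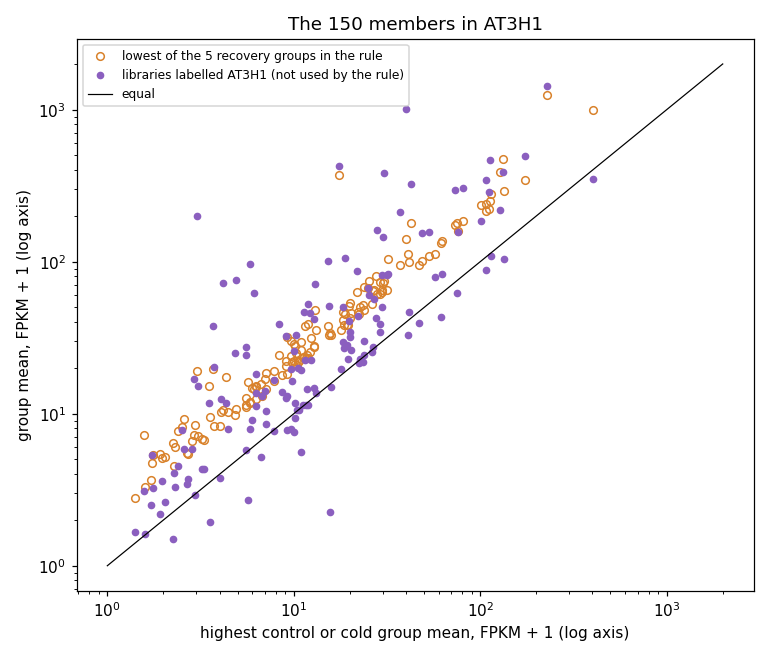
For each of the 150 members, the highest control or cold mean (x axis, FPKM + 1, log) against the lowest mean of the 5 recovery treatments used by the rule (open orange) and the mean of the libraries labelled AT3H1 (filled purple). The orange points lie above the line of equality because the rule chose them so, and 122 of the purple points lie above it.

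Members at both ends differed by orders of magnitude. The ratio of the AT3H1 mean to the highest control or cold mean was 98.0 in BGIOSGA003739, whose AT3H1 libraries had 559, 0.196 and 37.6 FPKM. It was 25.9 in BGIOSGA009523, with 295, 295 and 690 FPKM, and 25.8 in BGIOSGA015061, with 235, 1227 and 1572. The last 2 had every AT3H1 library above every control and cold library, and the first did not.

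The lowest ratios were 0.0865 in BGIOSGA015319, 0.364 in BGIOSGA021310 and 0.375 in BGIOSGA014917. BGIOSGA015319 had 3.03, 0.316 and 0.450 FPKM in AT3H1, beside 855, 18.1 and 103 in BT3H1 and 15.7, 22.0 and 6.08 in ACK. BGIOSGA021310 had 3.03, 1.03 and 1.06 FPKM in AT3H1 and 5.17, 7.11 and 33.6 in BT3H1. BGIOSGA014917 had 0.146, 1.78 and 0.925 FPKM in AT3H1 and 6.14, 12.1 and 16.9 in BT3H1. In BGIOSGA015319 the AT3H1 libraries lay under all 3 ACK libraries, but BCK replicate 1, at 0.0788 FPKM, was lower still. In each of the other 2 genes, 2 AT3H1 libraries lay within the range of the 6 controls and 1 under it.

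Because the same libraries chose and described the members, the choice was repeated without replicate 1, 2 or 3 of every treatment, and the genes so chosen were read in the replicate left out. The 150 genes chosen without replicate 1, 2 and 3 shared 110, 101 and 111 genes with the members. In the replicate left out, the lowest of the 5 recovery libraries was above the highest of the 6 control and cold libraries in 128, 117 and 133 of them. Of all annotated genes with any count, 7.64%, 5.71% and 6.50% did so in those replicates. The replicate left out came from the same treatments as the 2 that chose the genes. The counts and scores of this paragraph are therefore descriptions, and nothing is read from their distance to all genes. The median score in the replicate left out was 0.84, 0.50 and 0.86, against −0.81, −0.85 and −0.89 over all those genes, and was lower than the 1.06, 1.36 and 1.04 in the libraries that chose them. Replicate 2, where the score was lowest, holds the 2 control libraries with the highest levels of the members. Whether these 2 libraries account for the lower score was not tested.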

How the data were processed

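The authors aligned reads with HISAT2 to the indica genome, assembled new genes with Cufflinks, and deposited read counts per gene and FPKM values for 36 libraries. The counting program, its strand setting and its treatment of reads that match several places are not given in the sources used here, so neighbouring or near-identical genes are uncertain. The deposited counts were raw, and FPKM were the authors' values on those counts. Library totals ran from 10176660 to 18789555.

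Members were chosen on FPKM with a pseudocount of 1 among annotated genes, and members, gene lists and tests were chosen with earlier results of these data known. Counts were tested with edgeR 4.0.16 (TMM scaling, filterByExpr, robust quasi-likelihood fit, Benjamini-Hochberg adjustment, threshold 0.05) in R 4.3.3, with DESeq2 1.42.0 as an alternative. Tables were handled in Python 3.11.15 with pandas 2.3.3, numpy 2.4.6 and matplotlib 3.10.9. Named were the 20 highest scores, the 3 genes on each side of the limit, up to 3 members with the smallest p among those called per comparison and direction, and the 3 highest and 3 lowest in AT3H1, with others stated as named after their values were seen. No symbols, coordinates or sequences were used, since no identifier matched the reference table.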

Additional observations from a re-analysis of the deposited data

Results flagged for a closer look

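The rule was applied to annotated genes alone, and the tables also list 2509 new genes that the authors assembled. Of these, 8 had a score at or above that of the last member, a signal in rows that the comparisons above do not use. The highest was Novel00026 with a score of 2.21, its lowest recovery mean being 41.4 FPKM beside means of 8.04 in ACK and 8.18 in BCK. Novel01974 followed with 1.94 and Novel01175 with 1.57.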

How the results depend on the processing

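With the AT3H1 libraries as a further recovery treatment in the rule, 84 of the 150 members were chosen again. Other settings of the rule kept between 101 (pseudocount 10) and 138 (no limit on BT3H3) of them, and 116 without replicate 2 of ACK and BCK, a setting chosen after the data were seen. Without BT1 replicate 3, the shallowest library, 147 were chosen again, and without replicate 1, 2 or 3 of every treatment 101 to 111. The count of members above the highest control or cold mean in AT3H1 was 124 without AT3 and 99 to 135 with 1 AT3H1 library left out.

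DESeq2 called 40 members in BT1 vs BCK (8518 of all 32582 genes), 40 in BT3 vs BCK (10743 of 32854) and 14 in BT1H1 vs AT1H1 (2014 of 31752). It called 9 in BT1H3 vs BT1H1 (1483 of 31779), 34 in BT3H3 vs BT3H1 (4462 of 31444) and 9 in BT3H1 vs BT1H1 (1793 of 31829). A fit of all 36 libraries called 57, 50, 1 and 0 in BT1 vs BCK, BT3 vs BCK, BT3H3 vs BT3H1 and BT3H1 vs BT1H1, and median-ratio size factors called 0 in the last. Of all 27221 genes, the fit of all 36 libraries called 10680 in BT1 vs BCK, 11263 in BT3 vs BCK and 384 in BT3H3 vs BT3H1. The cause of these differences between settings was not tested. With a library left out, called members ranged from 4 to 29 in AT1 vs ACK, 0 to 19 in BT1 vs BCK, 3 to 25 in BT3 vs BCK, 0 to 2 in BT1H1 vs AT1H1, 0 to 10 in BT3H3 vs BT3H1 and 0 to 1 in BT3H1 vs BT1H1. The counts stayed at 0 in BCK vs ACK, BT1H3 vs BT1H1 and the cultivar by treatment test. Where given above, the counts over all genes with a library left out were also lower than with all libraries. The 17 pairs of a gene and a comparison named for the smallest p kept their direction in all 187 alternative fits and were called in 128. BGIOSGA016537, and BGIOSGA009524 in AT1 vs ACK, were not among these pairs.

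In no comparison were the correlations of all pairs of same-numbered libraries over 0.1, and the main tests used no replicate block. Single pairs differed widely, from 0.0415 to 0.554 in BT3 vs BCK and from −0.581 to 0.346 in BCK vs ACK. Whether same-numbered libraries shared a batch or handling was not settled by this. With the replicate block, the count of called members was 0 in AT1 vs ACK, 5 in BT1 vs BCK, 26 in BT3 vs BCK, 0 in BT3H3 vs BT3H1 and 0 in BT3H1 vs BT1H1. Of all genes, that fit called 0 in AT1 vs ACK, 1457 in BT1 vs BCK, 7215 in BT3 vs BCK and 0 in BT3H3 vs BT3H1. Depth limits low members most, and 20 members did not pass the filter in AT1 vs ACK.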
